A study of Danio rerio with 15 samples.

Results

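In zebrafish skeletal muscle, 98 transcripts parted scaf1-/- from scaf1+/+ fish in both diets over 14 of 15 libraries. The rule left out 1 wild-type fish, scaf1+/+ standard fish C. With that fish, only 1 transcript in each direction still parted the genotypes. The 98 were chosen by their own levels in CPM (a transcript's count over the sum of its library, times 1000000). Among the 14, every scaf1-/- fish lay above every scaf1+/+ fish in each diet, or below in each diet. Of 57775 transcripts in the files, 16206 passed a filter of a mean of 1 CPM or more and a count of 1 or more in each of 14 libraries, and 33 of these were higher and 65 lower in scaf1-/- fish. The rule used the genotype values, so the sizes of the genotype differences below are a description and carry no test.

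The study set adult females that lack Scaf1 beside wild-type fish to ask how muscle RNA differs between the genotypes and after more food. Knockout fish were homozygous for the scaf1Δ1 allele, a single CRISPR/Cas9 deletion line. Their controls came from a wild-type sibling line of the same founder cross with AB fish, so the genotype and the line's own genetic background cannot be told apart. The fish were 7 months old when the diets began and spent 6 weeks on them, with 3 feeds of dry gemma-300 a day on the standard diet and 5 on the double diet by the labels. The methods differ from the labels here, with fewer dry feeds in each diet and brine shrimp besides. The fish on the standard diet were 4 scaf1+/+ and 4 scaf1-/- females, and those on the double diet 3 scaf1+/+ and 4 scaf1-/- females. Each library came from 1 fish, named here by the mark in its label, and all came from 1 sequencing lane.

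Scaf1 (also cox7a3 or cox7a2l) is a small mitochondrial protein that joins respiratory complexes III and IV into supercomplexes. These complexes pass electrons to oxygen and pump the protons that drive ATP synthesis, and skeletal muscle depends on them for sustained work. The files name transcripts by Ensembl identifiers alone, and none of the 57775 identifiers could be matched to a gene in the tables used here. The transcripts therefore appear by identifier and length, with no gene name, role or position. For the same reason neither the level of scaf1 nor the markers of muscle and other cell types were checked, and the tissue label rests on the labels alone.

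The 14 libraries of the rule held 11671308 to 15844496 counts, with 27748 to 35800 transcripts detected. The library of scaf1+/+ standard fish C, which the rule left out, held 4045333 counts and 15655 detected transcripts. Over the 16206 transcripts that passed, the median difference of scaf1-/- from scaf1+/+ fish was -0.62 in standard diet and -0.43 in double diet on the log2 CPM scale. After TMM scaling, which sets libraries level by the bulk of their transcripts, these medians were 0.05 and 0.01. On the CPM scale the typical transcript was thus lower in scaf1-/- fish, and every member value below should be read against that shift.

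Every scaf1-/- fish lay above every scaf1+/+ fish in both diets for 33 of the 16206 transcripts, a share of 0.204%, and below for 65, a share of 0.401%. These shares are what the rule itself gave. The number expected by regrouping the fish within diets was not computed. How many of these transcripts would part by the order of the fish alone is therefore not known here. In the standard diet alone 240 transcripts parted upward and 392 downward, in the double diet alone 376 and 1461, and 6 transcripts parted in opposite directions, 1 of them higher in the knockouts on the standard diet and 5 on the double diet. The median difference over the 33 higher transcripts was 1.03 in standard and 1.51 in double diet in log2 CPM, against medians of -1.48 and -1.57 over the 65 lower ones. With TMM scaling these medians were 1.70 and 1.95 for the higher and -0.81 and -1.13 for the lower transcripts. Levels are per total RNA of a muscle piece, so fewer cells of a type and less RNA per cell cannot be told apart.

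**Figure D1:**
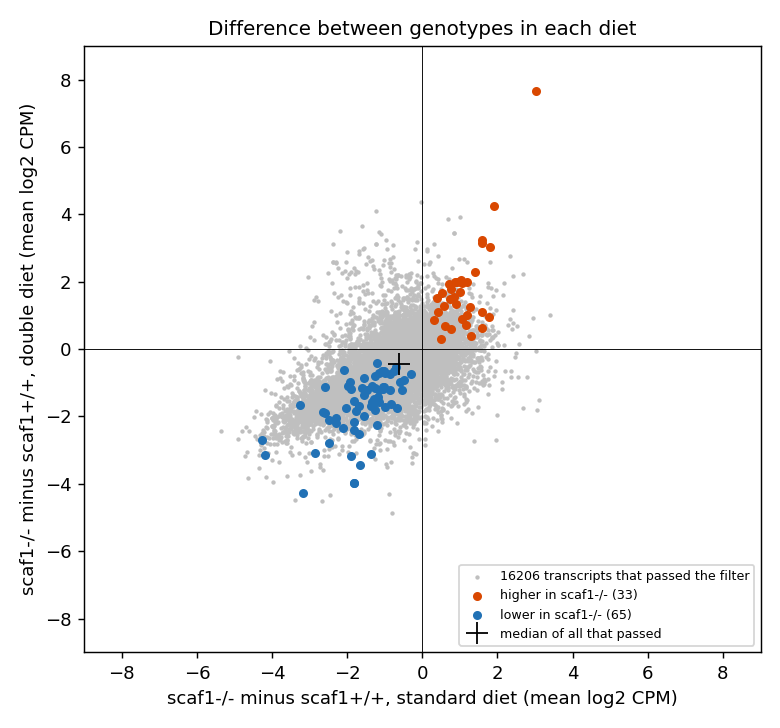
Each grey point is 1 of the 16206 transcripts that passed the filter, with the mean log2 CPM of scaf1-/- fish minus that of scaf1+/+ fish in the standard diet on the horizontal axis and in the double diet on the vertical axis. The 33 higher transcripts (orange) lie in the upper right and the 65 lower ones (blue) in the lower left, and the cross marks the median of all that passed, at -0.62 and -0.43; after TMM scaling 6 of the 65 lower transcripts no longer lie below 0 in both diets.

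How far the genotypes stood apart was measured by a margin, the log2 ratio of the lowest fish of the higher genotype to the highest fish of the lower genotype, taken in the diet where it was smaller. Margins ran from 0.013 to 1.42 (median 0.24) for the 33 higher transcripts and from 0.002 to 1.42 (median 0.146) for the 65 lower ones. A margin above 1, a clear doubling between the nearest fish, was reached by 2 higher transcripts and 1 lower transcript. Margins under 0.1 were found for 8 of the 33 and 28 of the 65. The 12 transcripts of largest margin in each direction are described in full.

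The transcript of largest margin among the higher ones was ENSDART00000190225.1, a short transcript of 438 bases. It was at 6.68, 4.15 and 1.71 CPM in scaf1+/+ standard fish 6, 7 and B, and at 44.7, 17.9, 20.9 and 45.5 CPM in scaf1-/- standard fish 6, A, B and C. In the double diet it was at 4.77, 1.08 and 0.914 CPM in scaf1+/+ fish 2, 3 and 4, and at 41.0, 38.5, 11370 and 714 CPM in scaf1-/- fish 2, 3, 6 and 7. The genotypes did not overlap in either diet, and 2 of the 4 knockouts on the double diet were far above the other 2. The ratio of knockout to wild-type means was 7.71 in standard diet and 1350 in double diet, the latter carried by fish 6. Its log2 fold change was 7.24 ± 1.33 (SE) in an edgeR fit with TMM scaling, averaged over the diets. Each SE given for edgeR is worked back from the fit, as the size of the fold change over the square root of its F statistic. For the genotype it is not free of the choice of these transcripts and is no test.

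The second, ENSDART00000143781.3 (896 bases), is called the lead transcript below because it took more counts than any other of the 33. It was at 650, 555 and 554 CPM in scaf1+/+ standard fish 6, 7 and B and at 1801, 1383, 2184 and 1818 CPM in scaf1-/- standard fish 6, A, B and C. On the double diet it was at 800, 350 and 325 CPM in scaf1+/+ fish 2, 3 and 4 and at 2260, 3354, 14087 and 3046 CPM in scaf1-/- fish 2, 3, 6 and 7. Knockout fish 6 on the double diet was again the highest, while the other 3 lay close together. Its edgeR log2 fold change was 3.17 ± 0.47 (SE, TMM-scaled), with ratios of mean CPM of 3.06 and 11.6 in the standard and double diet.

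The third, ENSDART00000183008.1 (5993 bases), was at 10.8, 9.86 and 11.1 CPM in scaf1+/+ and 26.5, 21.7, 35.5 and 28.8 CPM in scaf1-/- fish of the standard diet, in the same order of fish. On the double diet it was at 18.1, 11.7 and 8.22 CPM in scaf1+/+ and 37.3, 52.8, 134 and 43.4 CPM in scaf1-/- fish. ENSDART00000150910.2 (818 bases) was at 1.92, 2.00 and 2.23 CPM and at 4.10, 5.98, 5.89 and 10.1 CPM in the standard diet groups, and at 3.04, 0.923 and 1.05 CPM and 10.9, 12.3, 28.6 and 6.65 CPM in the double diet groups. Both had tight wild-type groups on the standard diet and 1 high knockout on the double diet. Their edgeR log2 fold changes, averaged over the diets and TMM-scaled, were 2.51 ± 0.37 and 3.07 ± 0.47 (SE).

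ENSDART00000192378.1 (3872 bases) was at 30.2, 27.6 and 28.6 CPM in scaf1+/+ and 61.3, 50.3, 77.1 and 78.8 CPM in scaf1-/- fish of the standard diet, and at 48.7, 35.9 and 20.7 CPM and 99.7, 119, 283 and 91.4 CPM on the double diet. ENSDART00000183767.1 (7621 bases) was at 5.34, 2.89 and 4.37 CPM against 9.59, 17.4, 15.3 and 20.5 CPM in standard diet, and at 9.68, 7.92 and 0.07 CPM against 32.9, 30.5, 75.4 and 15.8 CPM in double diet. The value of 0.07 CPM in scaf1+/+ double fish 4 is a single count, far under the other wild-type fish, and is the lowest count of any of the 33. ENSDART00000075785.5 (2387 bases) was at 175, 138 and 169 CPM against 351, 302, 408 and 284 CPM in standard diet, and at 210, 163 and 137 CPM against 385, 571, 1754 and 473 CPM in double diet. In all 3 the knockout and wild-type ranges were apart by less than the distance between knockout fish 6 and its own group on the double diet.

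ENSDART00000104058.5 (2727 bases) was at 95.2, 82.1 and 84.7 CPM in scaf1+/+ and 164, 147, 189 and 145 CPM in scaf1-/- fish on the standard diet, and at 113, 73.5 and 59.2 CPM and 189, 277, 816 and 219 CPM on the double diet. ENSDART00000183675.1 (6665 bases) was at 104, 110 and 102 CPM against 173, 162, 179 and 172 CPM in standard diet, and at 122, 70.2 and 78.4 CPM against 198, 308, 905 and 225 CPM in double diet. ENSDART00000180096.1 (3707 bases) was at 1.75, 2.30 and 5.14 CPM against 9.59, 7.39, 11.6 and 10.3 CPM in standard diet, and at 3.90, 3.38 and 0.984 CPM against 16.2, 20.3, 37.4 and 10.8 CPM in double diet. For ENSDART00000183675.1 the 7 standard diet fish fell into 2 narrow bands by genotype, while the double diet knockouts spread more than 4-fold.

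ENSDART00000185486.1 (6401 bases) was at 27.4, 21.8 and 15.4 CPM in scaf1+/+ and 43.0, 38.3, 50.0 and 41.1 CPM in scaf1-/- fish on the standard diet, and at 32, 21.6 and 9.70 CPM and 49.0, 78.8, 134 and 70.9 CPM on the double diet. ENSDART00000160216.2 (3141 bases) was at 108, 85.9 and 126 CPM against 217, 171, 289 and 187 CPM in standard diet, and at 150, 125 and 98.7 CPM against 267, 362, 948 and 283 CPM in double diet. The edgeR log2 fold changes of the 8 transcripts from ENSDART00000192378.1 on, TMM-scaled and averaged over the diets, ran from 2.00 ± 0.35 for ENSDART00000183675.1 to 2.94 ± 0.71 (SE) for ENSDART00000183767.1. Over the 12, the ratio of mean CPM ran from 1.62 to 7.71 in standard diet and from 3.73 to 1350 in double diet. The other 21 higher transcripts had ratios of 1.24 to 3.27 in standard and 1.24 to 4.40 in double diet.

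**Figure D2:**
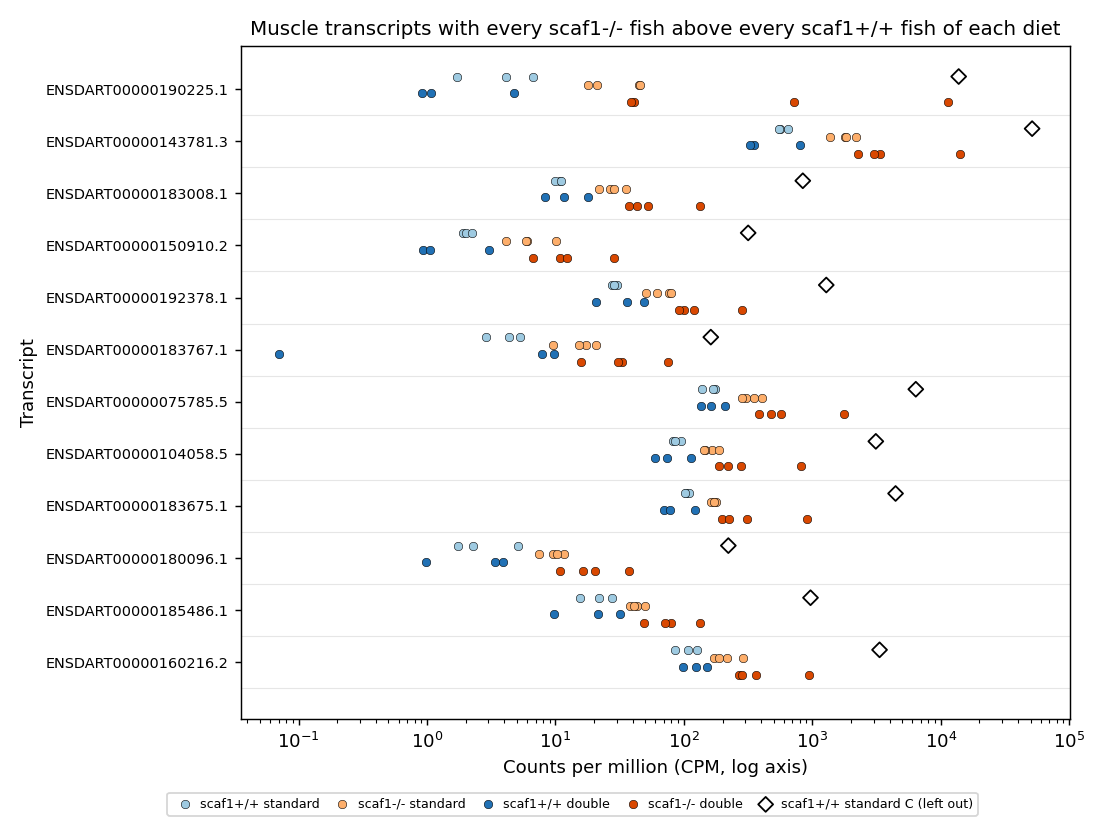
CPM (log axis) of the 12 higher transcripts of largest margin in each fish, with the groups as coloured points and scaf1+/+ standard fish C, which the rule left out, as open diamonds. In every one of the 12 the dark orange point furthest right is knockout fish 6 of the double diet, such as 14087 CPM of ENSDART00000143781.3, by a gap that varies between transcripts, and the open diamond lies further right still, at 51406 CPM there.

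The left-out scaf1+/+ standard fish C gave a reading of the same transcripts in a fish that the choice did not use. It went against its genotype: it lay above all 14 other fish for 28 of the 33 higher transcripts, while 7.18% of the transcripts that passed the filter did so. It had 51406 CPM of the lead transcript, 13784 CPM of ENSDART00000190225.1, 6389 CPM of ENSDART00000075785.5, 4445 CPM of ENSDART00000183675.1 and 843 CPM of ENSDART00000183008.1. The value in fish C was 28.9 times the median of scaf1+/+ standard fish 6, 7 and B at the median of the 33 transcripts. It lay above every scaf1-/- fish of the standard diet for 29 of the 33, against 10.5% of those that passed.

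Of the 5 higher transcripts for which fish C was not above all others, it lay below every scaf1-/- standard fish for 3. That is the side of its genotype label, but fish C also lay there for 63% of the transcripts that passed. Fish C had no count of ENSDART00000149412.2, which stood at 244 to 451 CPM in the other scaf1+/+ standard fish and 737 to 809 CPM in scaf1-/- standard fish. It also had no count of ENSDART00000193376.1, at 1.5 to 5.40 CPM in the other wild-type fish of that diet. For ENSDART00000104762.5 it was at 6.18 CPM, for ENSDART00000010496.8 at 12.1 CPM and for ENSDART00000161101.2 at 33.9 CPM. These 5 are named after their values were seen. A count of 0 in fish C allows up to 3 counts in its library, for counting error only.

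Over the 65 lower transcripts fish C was mostly low. It was below every scaf1-/- standard fish for 56 of the 65, beside 63% of the transcripts that passed, so low values were the usual state of this library. It had no count for 37 of the 65 (56.9%), beside 27.3% of those that passed. It lay above all scaf1-/- standard fish for 1 of the 65, ENSDART00000173611.2, at 6.18 CPM beside 5.14 CPM in scaf1+/+ standard fish B. In both directions, then, fish C lay beyond the knockouts of its diet for most members, 29 of 33 above and 56 of 65 below. With this fish in the rule, 1 transcript in each direction still parted the genotypes, out of 11807 that then passed the filter. Whether the depth of this library, its share of few transcripts or the fish itself gave these values was not tested.

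**Figure D3:**
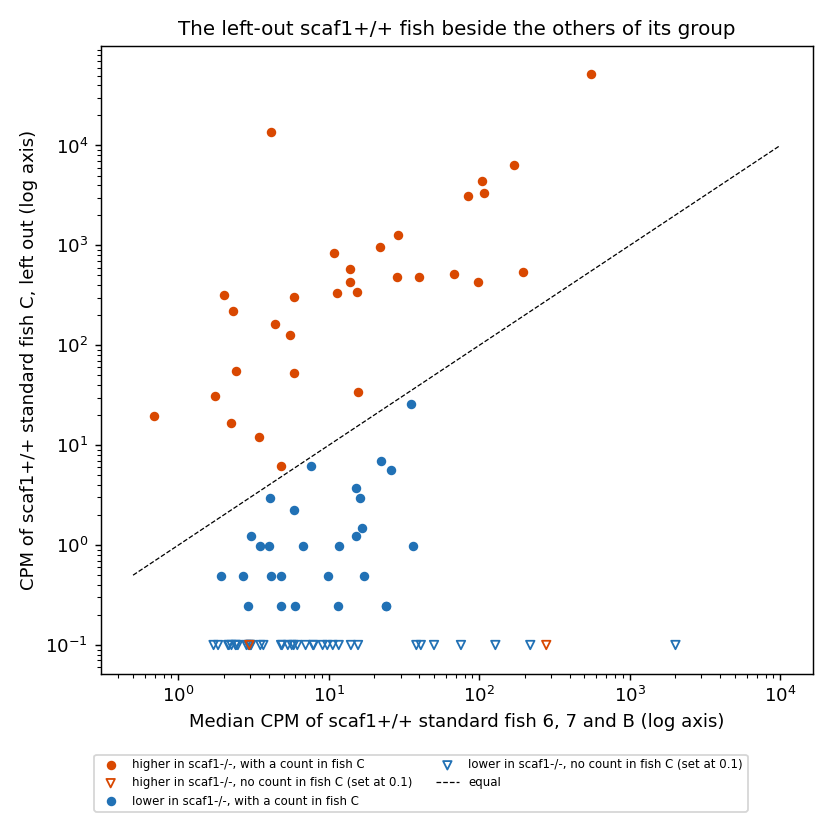
CPM in scaf1+/+ standard fish C (vertical, log axis) against the median CPM of scaf1+/+ standard fish 6, 7 and B (horizontal, log axis) for the 98 transcripts, with the line of equal values dashed and transcripts without a count in fish C drawn as triangles at the bottom. Most of the 33 higher transcripts (orange) lie well over the line and the 65 lower ones (blue) under it; 2 of the higher and 37 of the lower had no count.

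The 33 higher transcripts together took 0.18 to 0.263% of all counts in the 6 scaf1+/+ fish used by the rule. They took 0.4 to 0.706% in 7 of the 8 scaf1-/- fish and 3.28% in the eighth, scaf1-/- double fish 6. In the left-out fish C they took 9.11%. The lead transcript alone made up 1.41% of the counts of scaf1-/- double fish 6 and 5.14% of those of fish C, beside 0.0325 to 0.08% in the other wild-type fish and 0.138 to 0.335% in the other knockouts. Within each diet the rule itself parts the genotypes in this sum. Across the diets it does not, and there too the genotypes of the 14 fish did not overlap. Still, 2 fish of different genotype and diet exceed all the rest.

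**Figure D4:**
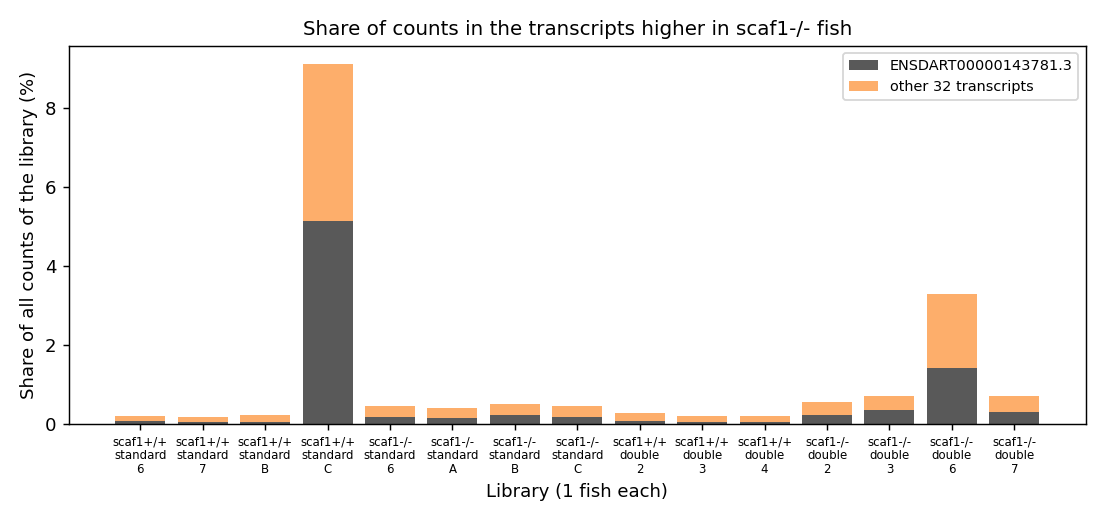
Bars give the share of each library's counts, in percent from 0, taken by the 33 higher transcripts, split into ENSDART00000143781.3 (dark) and the other 32 (light). scaf1+/+ standard fish C at 9.11% and scaf1-/- double fish 6 at 3.28% stand far above the other 13 libraries, which lie between 0.18 and 0.706%.

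scaf1-/- double fish 6 was the highest of the 14 fish for 26 of the 33 higher transcripts, while it was the highest for 4.75% of those that passed the filter. The rule makes the highest fish of these 33 a knockout, so the share over all transcripts is not like for like. Over all that passed, the other knockouts were each the highest for 1.26% (standard fish C) to 9.4% (standard fish A). For 25 of those 26, fish C was higher still. All 12 transcripts of largest margin are among the 25. Removing a fish cannot undo the parting of a member, so a rule without fish 6 says nothing of its weight in these values.

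How far the higher transcripts moved together within groups was read from the deviation of each fish from its group mean in log2 CPM. For 19 of the 33, the deviations correlated with those of the lead transcript above r = 0.7 over the 14 fish, the lead itself included, while 0.37% of the transcripts that passed did so. This is a description over fish that share their libraries, and it leans on fish 6: without it 10 of the 33 were above 0.7, beside 0.228% of those that passed. In all 19, fish 6 was the highest of the 14 and fish C above all of them. In those 19 transcripts fish 6 was 1.69 to 278 times (median 3.12) the median of the other double diet knockouts, and fish C was 12.2 to 3321 times (median 36.8) the median of its group. In the other 14 the median for fish 6 was 1.39 times and for fish C 5.91 times. The lead was itself far higher in fish 6 than in its group, so a choice by likeness to it favours transcripts high in fish 6. The place of fish 6 in the 19, and its distance from the other 14, are therefore not free of that choice. Fish C was not used for the correlation. The bound of 0.7 was chosen after the values were seen.

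The median correlation between pairs of the 33 was 0.407 over 528 pairs, beside 0.192 over the 2080 pairs of the 65 lower transcripts and 0.267 over all pairs of those that passed. Of the 65 lower transcripts, 2 correlated with the lead above 0.7. With scaf1-/- double fish 6 included, the higher transcripts thus held a block that deviated together, while the median pair of the lower ones lay under that of all transcripts. The pair medians were not computed without fish 6. The median r of the 33 with the lead was 0.75 with it, beside 0.179 of those that passed, and 0.444 without it, beside 0.0569.

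The higher and lower transcripts also differed in features that the rule did not use. The median length was 3707 bases for the 33 higher transcripts and 1942 for the 65 lower ones, beside 2260 for all that passed. Of the higher transcripts 15 (45.5%) were 4000 bases or longer, against 12 (18.5%) of the lower and 23% of all that passed. The 19 that moved with the lead had a median length of 5092 bases and the other 14 higher ones 2114. These are descriptions without a test, since the files list several transcripts of a gene as separate entries and members may belong to 1 gene.

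Estimated counts that are not whole mark reads shared between transcripts, which the quantifier divides by probability. Among the higher transcripts 89% of the values were not whole, against 64.4% among the lower and 68.2% among all that passed. For 27 of the 33, and 28 of the 65, no library gave a whole value, beside 50.7% of those that passed. The level of such a transcript depends on how reads were divided with others of like sequence, so it is uncertain which of them the reads came from. Those called whole were within 0.001 of a whole number.

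The mean CPM, read here as the number of reads behind a transcript and not as its level per length, had a median of 30 for the higher, 3.45 for the lower and 8.76 for all transcripts that passed. It was 10 or more in 23 of the 33 and 17 of the 65. The lowest count in any library was 3 or less for 1 of the higher (3.03%) and 14 of the lower transcripts (21.5%), beside 9.82% of all that passed. The lower set thus rests more on small counts, where 1 read can decide on which side of another fish a value lies.

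The lower transcript of largest margin was ENSDART00000103240.5 (2677 bases). It was at 5.92, 1.11 and 2.14 CPM in scaf1+/+ standard fish 6, 7 and B and at 0.252, 0.415, 0.230 and 0.215 CPM in scaf1-/- standard fish 6, A, B and C. In the double diet it was at 2.89, 3.23 and 0.492 CPM in scaf1+/+ fish 2, 3 and 4 and at 0.129, 0.075, 0.074 and 0.075 CPM in scaf1-/- fish 2, 3, 6 and 7. The double diet knockouts held 1 or 2 counts each and the standard diet knockouts 3 to 5, so the ratio is poorly set although no fish overlapped. Its edgeR log2 fold change was -3.40 ± 0.56 (SE, TMM-scaled), the strongest of the 65.

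ENSDART00000017849.5 (1113 bases) was at 5.67, 10.9 and 1.37 CPM in scaf1+/+ and 0.757, 0.415, 0.077 and 0.144 CPM in scaf1-/- fish of the standard diet, and at 2.89, 2.00 and 1.34 CPM and 0.065, 0.674, 0.369 and 0.149 CPM on the double diet. Its edgeR log2 fold change was -2.93 ± 0.53 (SE, TMM-scaled). ENSDART00000148055.3 (4188 bases) was at 2.75, 2.22 and 2.40 CPM against 0.947, 0.582, 0.689 and 0.718 CPM in standard diet, and at 1.3, 0.769 and 1.62 CPM against 0.129, 0.449, 0.443 and 0.448 CPM in double diet. Its 2 diets gave the same ratio of wild-type to knockout means, 3.35. The wild-type fish of the double diet were lower than those of the standard diet, and so were the knockouts.

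ENSDART00000091466.7 (3393 bases) was at 9.10, 11 and 5.14 CPM in scaf1+/+ and 1.07, 1.58, 1.99 and 3.52 CPM in scaf1-/- fish of the standard diet, and at 7.95, 7.85 and 4.36 CPM and 2.13, 1.42, 0.369 and 2.31 CPM on the double diet. ENSDART00000023006.5 (1944 bases) was at 12.4, 11.6 and 9.34 CPM against 5.43, 3.07, 0.383 and 0.287 CPM in standard diet, and at 9.25, 5.15 and 4.92 CPM against 0.777, 2.17, 3.47 and 2.39 CPM in double diet. ENSDART00000167112.2 (6977 bases) was at 9.35, 6.00 and 5.83 CPM against 0.757, 1.16, 4.36 and 3.02 CPM in standard diet, and at 2.75, 3.62 and 9.14 CPM against 0.777, 0.225, 0.443 and 0.822 CPM in double diet. In standard diet the knockouts 6 and A stood above B and C for the second of these 3 and below them for the third.

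ENSDART00000141737.3 (1789 bases) was at 2014, 2160 and 1890 CPM in scaf1+/+ and 1420, 1332, 951 and 863 CPM in scaf1-/- fish of the standard diet, and at 2086, 1365 and 2047 CPM and 798, 704, 704 and 934 CPM on the double diet. It was the one lower transcript with a mean of 100 CPM or more, and all 14 of its values were estimated counts that are not whole. It no longer parted the genotypes under TMM or median-ratio scaling. Its ratio of wild-type to knockout means was 1.77 in standard and 2.33 in double diet. The edgeR log2 fold change after TMM scaling was -0.45 ± 0.25 (SE), much smaller, and fish C had no count of it.

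ENSDART00000165086.2 (1694 bases) was at 8.60, 3.71 and 4.11 CPM in scaf1+/+ and 1.58, 2.08, 2.83 and 1.58 CPM in scaf1-/- fish of the standard diet, and at 3.54, 3.69 and 1.90 CPM and 1.17, 1.12, 0.369 and 1.34 CPM on the double diet. ENSDART00000181116.1 and ENSDART00000188273.1 (both 1197 bases) had the same count in each of the 14 libraries and are 1 observation, though all counts of lower transcripts here include both. Each was at 13.9, 24.8 and 24.2 CPM against 3.66, 2.99, 10.9 and 9.19 CPM in standard diet, and at 12.9, 17.7 and 15.5 CPM against 1.03, 0.374, 0.886 and 2.46 CPM in double diet. The wild-type fish changed little between diets, while each double diet knockout lay below each standard diet knockout.

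ENSDART00000108469.4 (2307 bases) was at 3.50, 5.56 and 2.74 CPM in scaf1+/+ and 2.15, 1.33, 1.53 and 1.65 CPM in scaf1-/- fish of the standard diet, and at 3.25, 2.54 and 2.25 CPM and 0.518, 0.524, 0.443 and 0.822 CPM on the double diet. ENSDART00000085087.6 (1907 bases) was at 36.1, 45 and 10.3 CPM against 8.08, 6.56, 3.75 and 3.59 CPM in standard diet, and at 40.8, 8.38 and 11.4 CPM against 4.98, 3.59, 6.06 and 2.02 CPM in double diet. For the latter, 3 of the 6 wild-type fish were about 4 times the other 3, with both kinds in each diet. Over these 12, the ratio of wild-type to knockout means ran from 1.77 to 17.2 in standard and from 2.33 to 25.0 in double diet. The other 53 lower transcripts had ratios of 1.24 to 8.56 and 1.32 to 10.1.

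**Figure D5:**
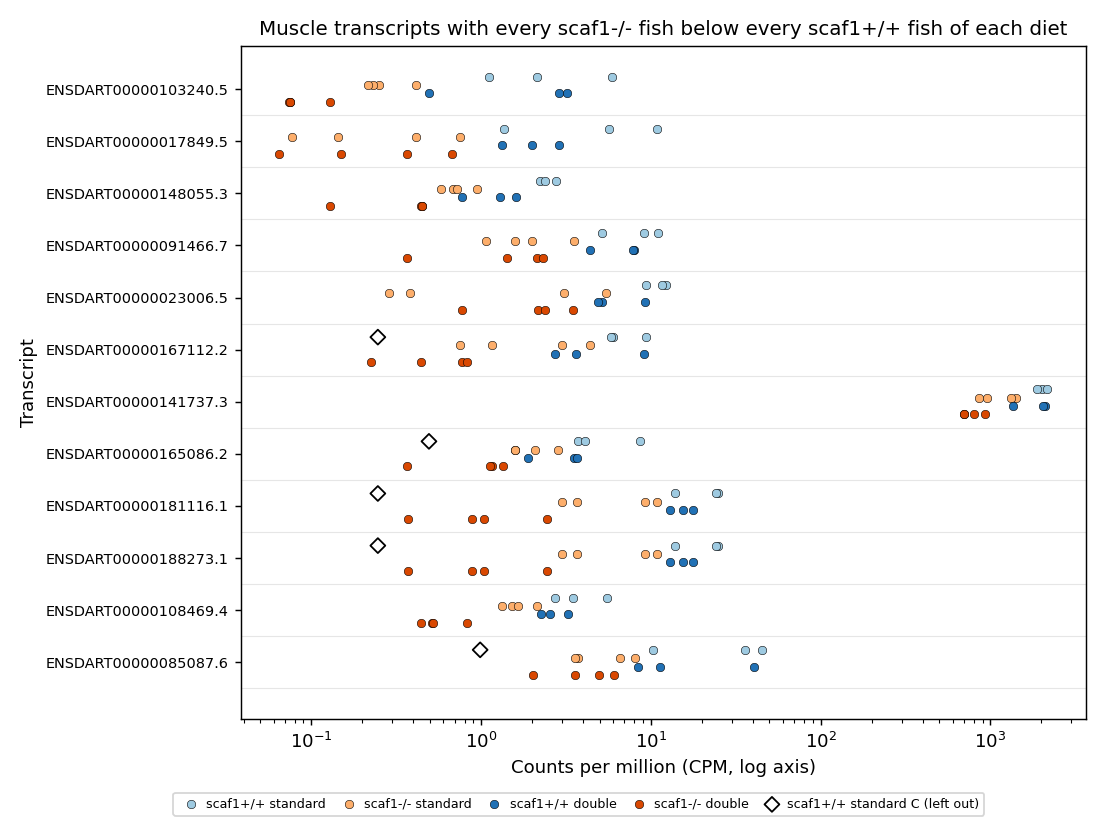
CPM (log axis) of the 12 lower transcripts of largest margin in each fish, with groups as coloured points and fish C as open diamonds where it had a count. The knockouts (orange) lie left of the wild-type fish (blue) of their diet, several of them near 0.1 CPM, where a value is 1 or 2 counts; ENSDART00000181116.1 and ENSDART00000188273.1 show the same points, and after TMM scaling 5 of the 12 still parted the genotypes.

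Among the 65 lower transcripts the highest of the 14 fish was scaf1+/+ standard fish 6 or 7 for 23 each, B for 10, and scaf1+/+ double fish 2 and 3 for 5 and 4. Of all transcripts that passed, 35.1% were highest in standard fish 7 and 12.3% in standard fish 6. The rule makes the highest fish of a lower transcript a wild type and the lowest a knockout. Shares over all transcripts are therefore not like for like here. The lowest fish was double knockout 3 for 15 of the 65, beside 9.95% of all that passed, and standard knockout C for 12, beside 26.3%. Standard knockout 6 was the lowest for none of the 65. The 65 together took 0.208 to 0.329% of counts in the 6 wild-type fish, 0.0945 to 0.201% in the 8 knockouts and 0.007% in fish C. In the standard diet, scaf1-/- fish 6 and A lay above B and C for 71% of all transcripts that passed. This was so for 36 of the 65 lower transcripts (55.4%) and 3 of the 33 higher ones (9.09%). For a higher transcript the rule asks B and C too to lie above every wild-type fish, which works against this split. The low share among the higher transcripts is therefore not free of the choice.

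The scale of the values bore differently on the directions. With TMM scaling 79 transcripts parted upward and 38 downward, against 33 and 65 in CPM, and with median-ratio scaling 62 and 42. Of the 33 higher transcripts 26 still parted under TMM and 25 under median-ratio scaling, while of the 65 lower ones 14 did under each. In TPM it was the other way, with 20 of the 33 higher (60.6%) and 47 of the 65 lower transcripts (72.3%) still parting. The means kept their direction in both diets for all 33 higher transcripts under both scalings, and for 59 (TMM) and 62 (median-ratio) of the 65 lower ones. Both scalings raised the knockouts against the wild types. The mean shift in log2 was 0.67 in standard and 0.44 in double diet with TMM, and 0.58 and 0.37 with median ratio. The 33 could therefore not turn, and only the count of the lower ones was open. Set against the median of all transcripts that passed in each diet, all 33 lay above it and 60 of the 65 below it. That all 33 did so follows from the rule, since these medians were -0.62 and -0.43 in CPM. Under all 5 scalings tried (CPM, TPM, TMM, median ratio, and CPM without the 100 most abundant transcripts) 16 higher and 10 lower transcripts parted the genotypes. In the last of these, a member among the 100 most abundant was itself removed and was counted as not parting. There 10 of the 12 named higher transcripts were kept, without ENSDART00000190225.1 and ENSDART00000143781.3, and 7 of the 12 named lower ones. Of the 12 named higher transcripts all parted under TPM, TMM and median-ratio scaling, while of the 12 named lower ones all did under TPM and 5 under TMM.

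The number of transcripts that part the genotypes also rests on single fish. Without 1 fish the 98 became 109 to 811, since a rule over fewer fish is easier to meet. The count grew most without scaf1+/+ standard fish B, to 111 higher and 700 lower. Without scaf1-/- standard fish 6 it was 335, without scaf1+/+ double fish 4 it was 196, without scaf1+/+ double fish 3 it was 161, without scaf1-/- standard fish A it was 157 and without scaf1+/+ standard fish 7 it was 155. Without scaf1-/- double fish 6 the lower transcripts numbered 99. Members that part in 14 fish part in any 13 of them, so a member could leave only by a mean that fell under 1 CPM. Of the 98, 95 stayed without scaf1+/+ standard fish 6 and 96 without scaf1+/+ standard fish 7. Without scaf1+/+ standard fish B, double fish 2 or double fish 3, 97 stayed, and without any other fish all 98. All that left were lower transcripts. The counts thus bear mostly on how many transcripts pass the rule.

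At the edge of the rule, ENSDART00000048977.6 was the higher transcript of smallest margin, at 88.4 to 109 CPM in scaf1+/+ and 113 to 162 CPM in scaf1-/- standard fish, and 113 to 134 CPM and 135 to 195 CPM in double diet. Knockout fish 6 at 135 CPM passed wild-type fish 2 at 134 CPM there. ENSDART00000058789.7 and ENSDART00000113716.4 followed. Just outside were ENSDART00000113299.4, with 15.66 CPM in 1 knockout below 15.68 CPM in 1 wild-type fish of the double diet, ENSDART00000090386.6 and ENSDART00000139764.2. Among the lower transcripts ENSDART00000152901.2 was just inside, with knockout fish 6 at 23.92 CPM and wild-type fish 6 at 23.95 CPM in standard diet, followed by ENSDART00000042588.8 and ENSDART00000144138.3. Just outside were ENSDART00000125198.3, ENSDART00000148321.2 and ENSDART00000009054.8.

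The 2 members with a mean nearest 1 CPM were both lower transcripts. ENSDART00000124779.3 (1248 bases) was at 1.41 to 3.00 CPM in scaf1+/+ and 0.536 to 1.08 CPM in scaf1-/- standard fish, and at 0.633 to 1.54 CPM and 0.374 to 0.523 CPM on the double diet. ENSDART00000186581.1 (267 bases) was at 1.11 to 2.59 CPM and 0.144 to 0.631 CPM on the standard diet, and at 1.34 to 2.53 CPM and 0.222 to 1.2 CPM on the double diet. The groups did not overlap, at levels where a knockout fish held few counts.

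The rule did not compare the diets, and a difference between diets was tested by an edgeR quasi-likelihood fit with Benjamini-Hochberg adjustment. The fit covered the 26862 transcripts with enough counts in the 14 libraries. The choice still used the same fish within each diet, and full parting favours transcripts with a small spread within groups. The median standard deviation within groups was 0.524 for the higher and 0.624 for the lower transcripts in log2 CPM, beside 0.74 for all that passed. Shares of members set beside those of all transcripts below are therefore descriptions, not free of the choice. Calls were made at an adjusted p under 0.05 where the log2 fold change also exceeded 1 in size, and p-values measure the spread between these fish. None of the 98 was called for the mean over the genotypes, in scaf1-/- or in scaf1+/+ fish. Over all transcripts tested the calls were 1 (0.00372%), 1 (0.00372%) and 0 (0%), so a lack of calls was the rule. The common coefficient of biological variation of the fit was 0.756.

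At an unadjusted p under 0.05 for the mean over genotypes there were 27 of the 98, beside 11.3% of all transcripts tested. They were 15 of the 33 higher transcripts, all higher on the double diet, and 12 of the 65 lower ones, 11 of them lower on the double diet. In scaf1-/- fish there were 29 of the 98 (14 higher and 15 lower transcripts), beside 8.66% of all tested, and in scaf1+/+ fish 4, beside 4.57%. All 98 had passed the filter on low values, while those tested include transcripts that did not. The shares are thus over unlike sets. DESeq2, run as an alternative, called 4 of the 98 for the mean, 8 in scaf1-/- fish and none in scaf1+/+ fish. The 8 hold both ENSDART00000181116.1 and ENSDART00000188273.1, which had the same counts and are not separate. Both are also counted in the 27 and the 29. Over all transcripts to which it gave an adjusted p, it called 517 of 28749, 355 of 28749 and 69 of 30595. In none of the other 21 alternatives was a member called for diet. Whether the diet effect of these transcripts differs between genotypes was not tested, as the members were chosen with the same fish.

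In scaf1-/- fish 31 of the 33 higher transcripts had a higher mean on the double diet, beside 39.3% of those that passed. The median difference was 0.86 in log2 CPM, beside -0.14 for all that passed. The direction held for 31 of 33 under TMM and median-ratio scaling too, beside 55.4% and 55.6%, with medians of 1.06 and 1.06. These knockout means include double fish 6, the highest of the 14 fish for 26 of the 33. With 19 of the 33 above r = 0.7 with the lead, the 33 are not separate readings of the diet. The counts were not computed without fish 6. In scaf1+/+ fish the mean was higher on the double diet for 19 of 33 in CPM (57.6%), beside 24.3% of those that passed. It was higher for 30 of 33 (90.9%) under TMM and median-ratio scaling, beside 46.6% and 45.4%. The count there depends on the scale, but lay above the share of all transcripts on each. Every double diet knockout lay above every standard diet knockout for 10 of the 33, beside 1.85% of those that passed, and every double diet wild-type fish above every standard diet one for 7 of the 33, beside 3.88%. In scaf1-/- fish the lowest adjusted p among the 33 by edgeR was 0.461, shared by ENSDART00000190225.1 and ENSDART00000172290.3. For ENSDART00000190225.1 the diet difference was 6.24 ± 1.57 (SE) in edgeR log2 fold change, with an adjusted p of 4.77e-05 by DESeq2 and 0.233 to 0.903 over the other 21 alternatives. Its double diet knockouts 2 and 3, at 41.0 and 38.5 CPM, lay within the 17.9 to 45.5 CPM of the standard diet knockouts. The size thus rests on double diet knockouts 6 and 7, at 11370 and 714 CPM. For ENSDART00000172290.3 the diet difference was 1.21 ± 0.33 (SE), with an adjusted p of 0.0416 by DESeq2 and 0.226 to 1 over the other 21 alternatives. The latter was at 13.1 to 22.1 CPM in standard and 22 to 70.8 CPM in double diet knockouts, which overlap narrowly.

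In scaf1-/- fish 51 of the 65 lower transcripts had a lower mean CPM on the double diet, as did 9837 of the 16206 that passed. Under TMM and under median-ratio scaling 42 of the 65 were lower, beside 7235 and 7195 of the 16206. In scaf1+/+ fish 58 of the 65 were lower in CPM, beside 12275 of the 16206, 39 under TMM, beside 8647, and 42 under median-ratio scaling, beside 8856. Every double diet knockout lay below every standard diet knockout for 13 of the 65, beside 2.73% of those that passed. Every double diet wild-type fish lay below every standard diet one for 18 of the 65, beside 11%. None of the lower transcripts had all fish of the double diet above those of the standard diet in either genotype. Of those that passed, 1.85% did in scaf1-/- and 3.88% in scaf1+/+ fish, so none of 65 is close to the share of all transcripts.

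The lower transcript nearest to a diet call was ENSDART00000144503.3 (929 bases). It was at 128, 155 and 69.7 CPM in scaf1+/+ standard fish 6, 7 and B, and at 61.8, 53.3, 28.8 and 16.7 CPM in scaf1-/- standard fish 6, A, B and C. On the double diet it was at 99.9, 66.2 and 46.5 CPM in scaf1+/+ fish 2, 3 and 4 and at 4.85, 2.84, 9.53 and 10.9 CPM in scaf1-/- fish 2, 3, 6 and 7. The knockouts of the 2 diets did not overlap, and in each diet they lay below the wild-type fish. The diet difference in scaf1-/- fish was -2.18 ± 0.37 (SE) in edgeR log2 fold change, with an adjusted p of 0.302, and -2.20 ± 0.38 (SE) by DESeq2, with an adjusted p of 1.21e-05. Over the other 21 alternatives its adjusted p ran from 0.0768 to 0.903. Fish C had no count of it. It and the transcripts named below for a call by DESeq2 were picked after their values were seen.

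In knockouts DESeq2 also called ENSDART00000127500.3 (705 bases), at 0.575 to 2.21 CPM in standard and 0.074 to 0.448 CPM in double diet knockouts, with a log2 fold change of -2.48 ± 0.60 (SE) and an adjusted p of 0.00876, against 0.461 by edgeR. ENSDART00000045809.8 (1942 bases) was at 2.22 to 5.24 CPM and 0.449 to 1.57 CPM in these groups, with -1.59 ± 0.45 (SE) and an adjusted p of 0.0383 by DESeq2 and 0.473 by edgeR. Neither overlapped between the diets in knockouts. In the other direction ENSDART00000113716.4 (5027 bases) was at 6.89 to 8.5 CPM in standard and 14 to 21.7 CPM in double diet knockouts, with 1.29 ± 0.37 (SE) and an adjusted p of 0.0400 by DESeq2 and 0.473 by edgeR. Its wild-type fish were at 5.12 to 6.76 CPM and 5.06 to 6.89 CPM in the diets, so it is also 1 of the transcripts near the edge of the rule. The other calls of DESeq2 in knockouts were ENSDART00000172290.3, ENSDART00000181116.1 with ENSDART00000188273.1, and ENSDART00000190225.1, described above, and for the mean over genotypes ENSDART00000193034.1 with an adjusted p of 0.0481, against 0.32 by edgeR.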

How the data were processed

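Muscle RNA of 15 fish was sequenced, and the authors quantified reads with kallisto against Ensembl zebrafish cDNA. The submitters' processing notes name FastQC 0.11.8 for read quality. Each deposited file lists transcripts with an estimated count and 2 lengths, full and effective, which were the same in all files. The notes also name sleuth and the methods DESeq2. Estimated counts were rounded here. Whether the quantification used strand is not given in the sources used here.

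The members and lists were chosen with earlier results of these data known. The scaf1+/+ standard fish C was left out because the rule does so. A transcript needed a mean of 1 CPM or more and a count of 1 or more in each of 14 libraries. Named in full were the 12 members of largest margin in each direction. Also named were the 3 members just inside and 3 transcripts just outside the edge, the 2 with a mean nearest 1 CPM and any called for diet. Gene lists, cell type markers and scaf1 were to be named too, but 0 of the identifiers matched the gene tables, so these and counts per gene were not used here.

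Diet was tested with edgeR 4.0.16 in R 4.3.3 (TMM scaling, filterByExpr with a smallest count of 10, robust quasi-likelihood, 1 coefficient per group, 10 residual degrees of freedom before moderation), fitted over all transcripts. The scripts were tested on simulated data. Alternatives were DESeq2 1.42.0, limma 3.58.1 on log2 TPM with a pseudocount of 1 or 0.1, other scalings and filters, a replicate block, all 15 libraries and leaving out each library. TPM were computed here from the deposited estimated counts and effective lengths. With 3 or 4 fish in a group, depth was 11671308 to 15844496 counts in the libraries used, and values near 1 CPM rest on few counts.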

Additional observations from a re-analysis of the deposited data

Results flagged for a closer look

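Groups of 4 fish (52 sets of values) were looked at for a fish far from its group, and 11 had one. The cutoff would mark about 1 in 20 sets if they were separate and normally spread. In 8 of the 12 higher transcripts named in full, scaf1-/- double fish 6 stood apart from fish 2, 3 and 7. Its values were 11370 CPM for ENSDART00000190225.1, 14087 for ENSDART00000143781.3, 134 for ENSDART00000183008.1 and 283 for ENSDART00000192378.1. They were 1754 CPM for ENSDART00000075785.5, 816 for ENSDART00000104058.5, 905 for ENSDART00000183675.1 and 948 for ENSDART00000160216.2. The same fish stood apart in the share of counts taken by the 33 higher transcripts, at 3.28%. These 9 are values of 1 library and of transcripts that move together, so they are not separate observations. In the other direction, scaf1-/- double fish 2 stood apart at 0.129 CPM for ENSDART00000103240.5 and at 0.129 CPM for ENSDART00000148055.3. For ENSDART00000103240.5 it held 2 counts and the other double diet knockouts 1 count each. The 52 sets were not on a log scale, came from transcripts chosen with the same fish, and in part move together. The share of about 1 in 20 therefore need not hold for them, least of all at such counts, and 11 of 52 is a description only.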

How the results depend on the processing

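Of the results that answer a comparison, 83 values moved by less than 1.5 times under the alternatives and 52 by more. In CPM 33 transcripts parted upward and 65 downward. These numbers were 79 and 38 with TMM scaling, 62 and 42 with median-ratio scaling and 52 upward without the 100 most abundant transcripts. With a mean of 5 CPM or more 25 parted downward (55 in all), with no minimum count 126 (164 in all), and with all 15 libraries 1 each way (2 in all). Leaving out 1 library gave 34 to 111 upward, 72 to 700 downward and 109 to 811 in all. With all 15 libraries the genotype log2 fold change of 8 named higher transcripts reversed: -0.34 for ENSDART00000183008.1, -0.25 for ENSDART00000150910.2, -0.18 for ENSDART00000192378.1, -0.17 for ENSDART00000075785.5, -0.19 for ENSDART00000104058.5, -0.41 for ENSDART00000183675.1, -0.35 for ENSDART00000185486.1 and -0.16 for ENSDART00000160216.2. This follows from the values of scaf1+/+ standard fish C. The genotype fold changes of 4 more named transcripts moved by over the spread between fish, without turning.

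Diet calls over all transcripts by edgeR were 1 for the mean over genotypes, 0 in scaf1+/+ and 1 in scaf1-/- fish. DESeq2 gave 517, 69 and 355, all 15 libraries 0 for the mean and 0 in scaf1-/- fish, limma on log2(TPM + 1) 0, 4 and 0, and limma on log2(TPM + 0.1) 0, 2 and 0. Leaving out 1 library gave 0 to 3, 0 to 1 and 1 to 2. The 12 diet values of members that DESeq2 called, both of the pair with the same counts included, were called by none of the other 21 alternatives. They kept their direction in all. The cause was not tested. The replicate marks shared by the genotypes had r = 0.35 and 0.51 in standard and -0.19 and -0.29 in double diet. Whether fish with the same mark share more than the mark was not tested. An edgeR fit with the replicate block, with 3 residual degrees of freedom, called 0, 0 and 0 (1214, 788 and 1289 at an unadjusted p under 0.05). Counts per gene were not run.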
